A study of Mus musculus with 24 samples.

Results

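Creb5 and 6 relatives of the CREB/ATF family of transcription factors, Creb1, Creb3, Crem, Atf1, Atf2 and Atf7, were followed through 2 kinds of murine RNA libraries. The 7 genes were taken by symbol from the 55335 genes listed for blood and from the 56883 gene names listed for the cell surface. Creb5 was chosen by its expected counts in these same blood libraries, which differed between the groups, so the blood values of the 7 genes are a description and carry no test. The other 6 genes are the relatives it is set against.

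The study asked which RNAs lie on the outer membrane of mammalian cells. Surface RNA was amplified in place with AMOUR, in which T7 RNA polymerase copies RNA exposed on fixed, bead-bound cells, from C57BL/6 mice of wild-type genotype. B cells, T cells (isolated with a kit for CD8 T cells) and natural killer (NK) cells came from spleen, and hematopoietic stem and progenitor cells (HSPCs, by lineage depletion) and monocytes from bone marrow, with 3 libraries of each. Peripheral blood mononuclear cells (PBMCs) of wild-type mice gave total RNA libraries in 3 groups of 3 libraries, named ct, WT and Y by their treatment. The labels do not explain these 3 names, and all 3 groups share the wild-type genotype. The labels give no strain, age or time of sampling for the PBMC mice, and no age for the others. The study calls the surface libraries of each cell type independent biological replicates, and for the PBMC libraries no source used here says whether they came from separate animals. There the p-values measure only the spread between these libraries, which may be technical.

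CREB and ATF proteins carry a basic leucine zipper, bind DNA as dimers and recognise the cAMP response element (CRE), TGACGTCA. Creb1, Crem and Atf1 form the group that protein kinase A and related kinases phosphorylate to recruit the coactivators CBP and p300. Atf2, Atf7 and Creb5 form a second group that is activated by stress kinases and often pairs with Jun, and Creb3 is held in the membrane of the endoplasmic reticulum until it is cleaved.

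On GRCm38 (GENCODE release M21), Creb5 lies on the plus strand at chr6:53287270-53700376. It has 15 annotated isoforms, 5 of which have a coding sequence. Its isoform Creb5-215 has 7 exons and 1230 bases and no annotated coding sequence. Its exons 4, 5 and 6, of 72, 94 and 122 bases, overlap coding exons of other isoforms, and its other 4 exons do not. The last exon, chr6:53433496-53434185, is 690 bases long and overlaps no other Creb5 isoform. Within it, on the same strand, lies Gm25818, an annotated small nuclear RNA gene of 164 bases at chr6:53433974-53434137. Gm25818 resembles U1, the abundant nuclear RNA that recognises the 5′ splice site. The 2 sequences are shown because this stretch of Creb5 is so close to U1. They come from the GENCODE transcripts, and capitals mark the 8 bases at which Gm25818 differs from Rnu1a1, a U1 gene of the same length.
Gm25818: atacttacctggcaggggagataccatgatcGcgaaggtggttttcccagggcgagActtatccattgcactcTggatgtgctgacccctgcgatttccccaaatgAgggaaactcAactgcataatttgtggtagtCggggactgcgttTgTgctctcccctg
Rnu1a1: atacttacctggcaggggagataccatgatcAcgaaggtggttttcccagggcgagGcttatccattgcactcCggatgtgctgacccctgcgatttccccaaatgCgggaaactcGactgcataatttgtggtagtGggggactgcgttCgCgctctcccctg
The identity was 95.1%, and the longest run without a mismatch was 32 bases. Gm25818 took up bases 1019 to 1182 of Creb5-215, or 13.3% of its length. Of the 1200 stretches of 31 bases in Creb5-215, 146 also occurred in transcripts of other genes, 134 of them in Gm25818, and 3 were shared with Rnu1a1. The other 14 Creb5 isoforms shared between 0% and 1.05% of their stretches with other genes.

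RefSeq places 2 Creb5 start sites in windows of 300 bases (GRCm38.p6, 250 before and 50 after the start). Both windows are shown because Creb5-215 begins inside the first, at base 53287328, and the short coding isoform Creb5-205 inside the second, at base 53573376. Capitals mark TGACGTCA.
Creb5, chr6:53287053-53287352, plus strand: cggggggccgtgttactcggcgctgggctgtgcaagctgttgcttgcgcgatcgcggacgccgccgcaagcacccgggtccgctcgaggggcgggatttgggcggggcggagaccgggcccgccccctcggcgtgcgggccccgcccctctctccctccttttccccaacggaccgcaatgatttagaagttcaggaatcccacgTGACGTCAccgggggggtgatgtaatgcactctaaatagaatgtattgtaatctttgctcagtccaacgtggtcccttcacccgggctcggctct
Creb5, chr6:53573124-53573423, plus strand: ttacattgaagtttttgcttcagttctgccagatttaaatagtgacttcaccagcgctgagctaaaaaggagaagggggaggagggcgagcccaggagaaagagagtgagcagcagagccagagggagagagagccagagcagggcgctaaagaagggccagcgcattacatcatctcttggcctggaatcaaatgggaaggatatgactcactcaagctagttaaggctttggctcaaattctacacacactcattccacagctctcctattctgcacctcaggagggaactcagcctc
The first window held TGACGTCA once, from base 206 of the window, and the second held neither TGACGTCA nor TGACG. Searched on both strands, TGACGTCA occurred in 1.79% of 32851 promoter windows of this length, and TGACG, which TGACGTCA contains, in 20.8%. Of the 7 windows matched to members, 1 held TGACGTCA and 2 held TGACG, the second being that of Atf1 (capitals mark TGACG). Crem had no entry.
Atf1, chr15:100227609-100227908, plus strand: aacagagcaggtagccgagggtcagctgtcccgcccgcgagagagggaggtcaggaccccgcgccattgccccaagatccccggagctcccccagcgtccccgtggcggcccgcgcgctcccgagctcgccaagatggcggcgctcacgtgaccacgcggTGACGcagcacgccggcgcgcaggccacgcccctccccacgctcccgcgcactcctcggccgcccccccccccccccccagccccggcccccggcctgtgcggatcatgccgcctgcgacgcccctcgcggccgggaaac

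The relatives lie at chr1:64532645-64604548 (Creb1, plus strand), chr2:73816509-73892639 (Atf2, minus strand), chr4:43562332-43567060 (Creb3, plus strand), chr15:100227819-100261244 (Atf1, plus strand), chr15:102525946-102625464 (Atf7, minus strand) and chr18:3266048-3337748 (Crem, minus strand). Several share sequence with other genes, and whether reads were counted by strand is not stated. Atf1-201 shared 23.9% of its 31-base stretches with other genes, mostly the pseudogene Atf1-ps. Atf7-210 shared 17.8%, mostly with Gm28047. Creb3-201 shared 23.4%, mostly on the opposite strand with Tln1. Levels of these genes are therefore uncertain where reads could be split.

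The PBMC libraries held between 4686426 and 9055797 expected counts, of which the ribosomal RNA gene CT010467.1 took between 50.5% and 57.0%, and 11635 genes passed the default expression filter of edgeR. The depth of the surface libraries is unknown, since TPM, which scales transcript abundance to a fixed total, keeps none. Transcripts annotated as protein-coding took between 16.9% and 18.1% of TPM in monocytes and between 0.645% and 2.96% in the other 12 libraries. The annotation is by transcript, so retained introns and transcripts without a defined coding sequence are left out, also those of protein-coding genes. By the methods of the study the monocyte libraries were run on another sequencing platform, so that platform and cell type cannot be told apart there. Each cell type was highest in the summed TPM of its own marker list, except that the HSPC list reached between 711 and 1136 TPM in monocytes against between 121 and 259 TPM in HSPCs. The monocyte libraries also held between 1710 and 1730 TPM of neutrophil markers. In PBMCs, the 11 neutrophil markers summed to between 315 and 340 CPM, counts scaled to library size, in Y, between 152 and 166 in ct and between 146 and 156 in WT. The 7 erythroid markers summed to between 6924 and 8308 CPM in ct and between 4298 and 5040 in the other groups. The part of these cell types in the results was not tested, and in bulk RNA fewer cells of a type cannot be told apart from less RNA per cell.

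Creb5 was about 3 times as high in the PBMC group WT as in ct or Y. The WT libraries held 195, 218 and 132 expected counts of Creb5. The ct libraries held 57.4, 58.9 and 48.5, and the Y libraries 23.2, 46.4 and 76.2. The 3 WT libraries lay above all 6 others, while ct and Y overlapped. Scaled to library size (CPM after TMM normalization), the means were 7.10 ± 1.60 in ct, 22.5 ± 4.60 in WT and 6.94 ± 2.53 in Y (SD, n = 3). The log2 fold change from edgeR was 1.68 (SE 0.20) for WT against ct, 0.04 (SE 0.24) for Y against ct and -1.65 (SE 0.20) for Y against WT. The fitted fold and the means of Y and ct differ in sign, both by less than the spread. The 3 comparisons share libraries and are not independent of each other.

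Marker lists of other cell types also set WT apart. The 10 monocyte markers summed to between 361.5 and 378.5 CPM in WT, between 329 and 358 in ct and between 305 and 327 in Y. The 7 NK cell markers summed to between 47.2 and 53.5 CPM in WT, between 36.4 and 39.8 in ct and between 36.7 and 39.8 in Y, so that on both lists the WT libraries lay above all others, as they did for Creb5. In WT against ct, edgeR called 1 of the 10 monocyte markers higher and 1 lower, and 2 of the 6 NK cell markers tested higher, while DESeq2 called 0 on either list. Of all genes tested, edgeR called 0.765% higher and 1.6% lower there. In Y against WT, edgeR called 3 of the 10 monocyte markers lower and 8 of the 11 neutrophil markers higher. DESeq2 called 1 of the monocyte markers and 8 of the neutrophil markers. Of all genes tested, edgeR called 0.438% higher and 0.817% lower in that comparison. Of the 6 NK cell markers edgeR called 0 there, as did DESeq2, with 3 at an unadjusted p below 0.05 in edgeR. The 6 platelet markers set WT apart in the other direction, at 269 to 297 CPM against 419 to 453 in ct and 334 to 337 in Y. The part of these cells in the Creb5 values was not tested.

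**Figure D1:**
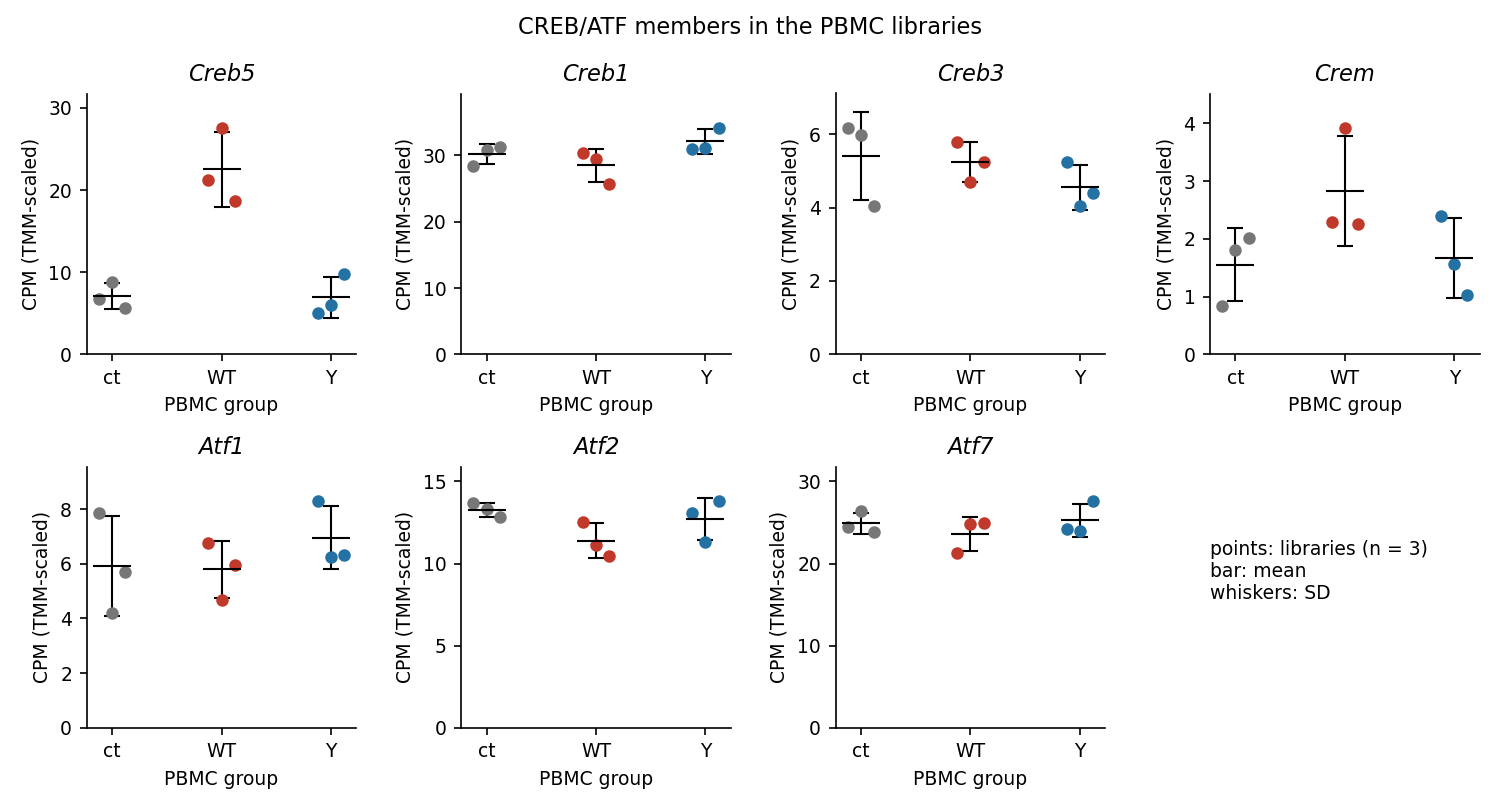
CPM after TMM normalization (y axis, from 0) of each of the 7 genes in the PBMC groups ct, WT and Y (x axis). Points are libraries, bars means and whiskers SD over 3 libraries. Only for Creb5 do the WT libraries stand clear of all others.

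Creb1, the founding CRE-binding activator, varied little between the groups. Its means were 30.2 ± 1.51 CPM in ct, 28.5 ± 2.43 in WT and 32.1 ± 1.83 in Y (SD, n = 3). WT overlapped ct and did not overlap Y, whose lowest library stood at 30.99 CPM against a highest of 30.3 in WT. Atf1, which pairs with Creb1, had 6.76, 4.69 and 5.94 CPM in WT, 7.85, 4.20 and 5.69 in ct and 8.29, 6.25 and 6.32 in Y, and the 3 groups overlapped.

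Crem, which encodes activating and repressing isoforms, had few reads in every library. The WT libraries held 20.6, 31.3 and 15.8 expected counts of it, those of ct 7, 12 and 17, and those of Y 11, 12.1 and 8. WT was the highest group on average, at 2.83 ± 0.95 CPM against 1.55 ± 0.63 in ct and 1.66 ± 0.69 in Y (SD, n = 3). In CPM the WT libraries, at 2.29, 3.93 and 2.26, lay above the 3 ct libraries and overlapped Y, whose highest library had 2.40. The log2 fold change was 0.87 (SE 0.36) for WT against ct and -0.84 (SE 0.38) for Y against WT.

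Atf2 and Atf7, the closest relatives of Creb5, did not share its pattern. Atf2 had 13.3 ± 0.44 CPM in ct, 11.4 ± 1.06 in WT and 12.7 ± 1.28 in Y (SD, n = 3). All 3 WT libraries of Atf2, at most 12.5 CPM, lay below those of ct, which reached down to 12.8. Atf7 had 24.9 ± 1.31 CPM in ct, 23.7 ± 2.07 in WT and 25.3 ± 2.05 in Y, and its groups overlapped. Creb3 had 5.404 ± 1.19 CPM in ct, 5.23 ± 0.55 in WT and 4.55 ± 0.62 in Y, with overlap between all groups. Apart from Creb5 and Crem, log2 fold changes ranged from -0.27 (Creb3, Y against ct) to 0.22 (Atf1, Y against WT).

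**Figure D2:**
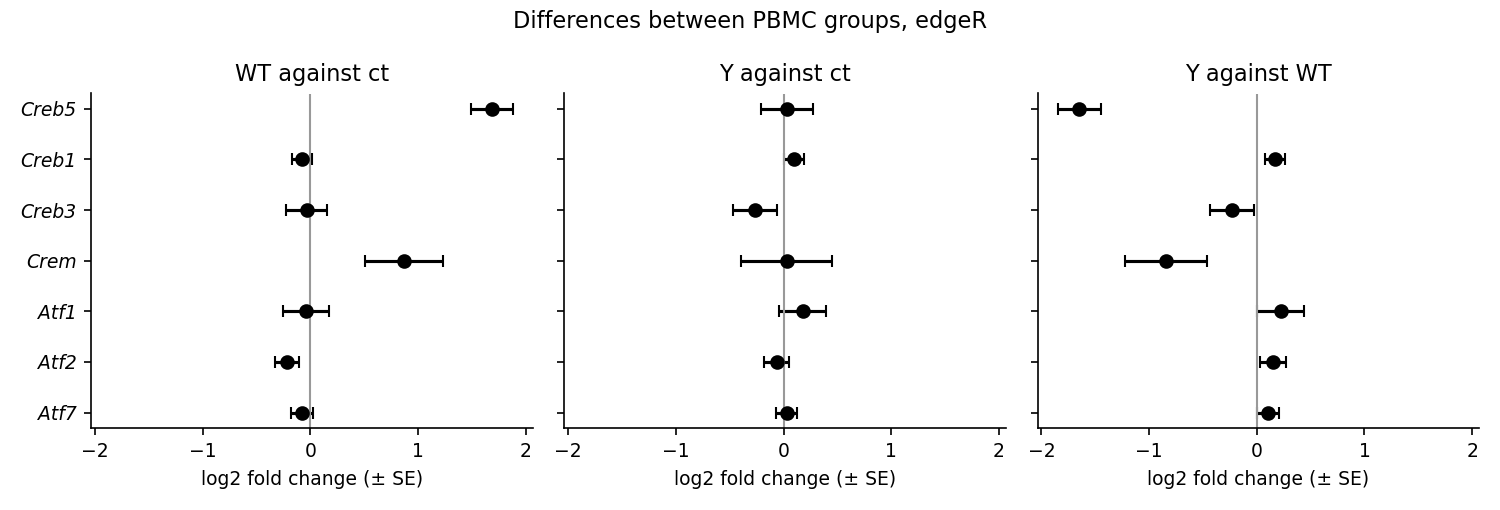
Log2 fold changes from edgeR (x axis, points, with SE as whiskers) of the 7 genes (y axis) in the 3 PBMC comparisons, which share libraries. Creb5 stands at 1.68 for WT against ct and -1.65 for Y against WT, and near 0 for Y against ct.

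Per length, Creb5 held a larger share of the family in WT than in the other groups. By the TPM of RSEM, Creb5 held 36.95%, 45.6% and 35.1% of the summed TPM of the 7 genes in the WT libraries. Its share was 14.4%, 19.6% and 14.5% in ct and 11.3%, 16.7% and 20.4% in Y, so WT again stood apart. The 6 relatives together had between 7.57 and 10.8 TPM in ct, between 7.72 and 9.55 in WT and between 6.69 and 8.80 in Y, and these ranges overlap.

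In 5 of the 9 libraries the RSEM length of Creb5 equalled that of Creb5-215, the isoform without a coding sequence. RSEM gives each gene a mean isoform length weighted by abundance, and for Creb5 it was 1230.0 bases in WT 2, WT 3, Y 1, Y 2 and ct 2, within 0.005 bases. Creb5-215 is the only Creb5 isoform of that length. In the other 4 libraries the mean was 1233 (WT 1), 1224 (Y 3), 1263 (ct 1) and 1264 (ct 3), while the isoforms of Creb5 range from 354 to 7917 bases. For the 6 relatives, no library gave the length of a single isoform. Whether the Creb5 reads came from the first 6 exons, from the rest of the last exon or from the U1-like stretch was not tested, since the tables hold no positions of reads.

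For WT against ct, the edgeR adjusted p of the 5 U1-type genes tested ran from 0.153 (Rnu1b1) to 0.997 (Gm25818). Gm25818 itself had 13.6, 25.9 and 13.4 expected counts in WT, 18.6, 18.4 and 13.9 in ct, and 7.85, 9.19 and 16.0 in Y, and WT overlapped both other groups. Its log2 fold change was 0.02 (SE 0.33, edgeR adjusted p = 0.997) for WT against ct and -0.41 (SE 0.37, edgeR adjusted p = 0.739) for Y against WT. Rnu1a1 had means of 4339 ± 461 CPM in ct, 4829 ± 988 in WT and 4946 ± 398 in Y (SD, n = 3). Its log2 fold change was 0.15 (SE 0.15, edgeR adjusted p = 0.782) for WT against ct. Rnu1b1, another U1 gene, was at 1.23 (SE 0.39, edgeR adjusted p = 0.153) for WT against ct and at 0.43 (SE 0.35, edgeR adjusted p = 0.705) for Y against WT. Its mean was 13.4 ± 1.87 CPM in ct, 31.9 ± 13.4 in WT and 42.1 ± 28.4 in Y (SD, n = 3). For WT against ct, Rnu1b6 was at 0.83 (SE 0.52, edgeR adjusted p = 0.585) and Rnu1b2 at -0.07 (SE 0.22, edgeR adjusted p = 0.952). In ct 3 Rnu1b6 held 0.55 expected counts, against 181 and 187 in ct 1 and ct 2, so its value rests partly on 1 library. Rnu1b1 and Rnu1b2 had equal expected counts in Y 2, at 570.83, and equal mean TPM in each surface cell type. Reads may be split between these 2 genes, so their separate values are uncertain.

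**Figure D3:**
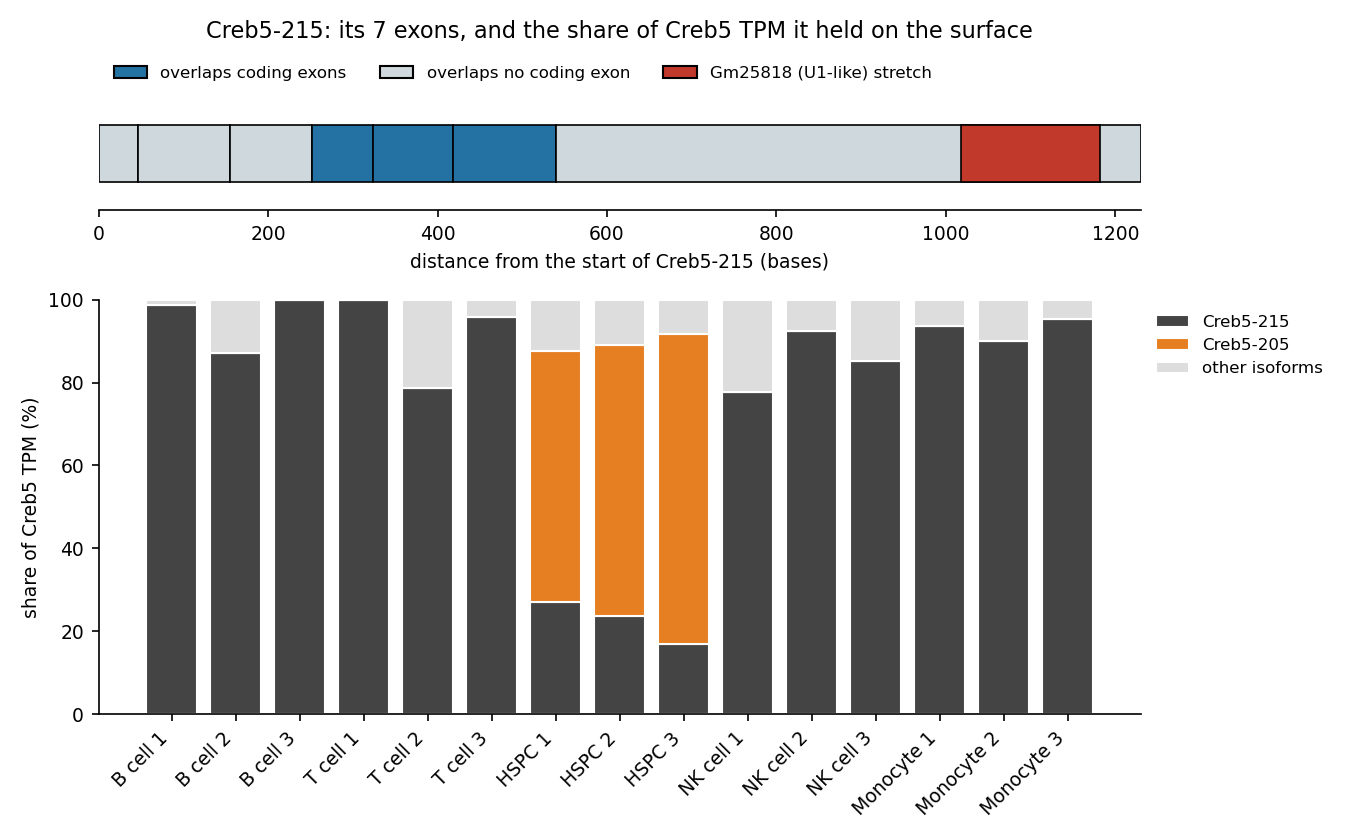
Top, the 7 exons of Creb5-215 to scale (x axis, bases from its start), with exons that overlap coding exons of other isoforms in blue and the Gm25818 stretch in red. Bottom, share of the Creb5 TPM on the surface (y axis, %) held by Creb5-215, Creb5-205 and the other isoforms in each library, where Creb5-215 holds at least 77.7% outside HSPCs and at most 27.0% in HSPCs. Outside monocytes these are shares of less than 1 TPM.

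Genes around the family also differed between the PBMC groups. The lists held 61 genes: other CREB and ATF genes, Jun and Fos partners, coactivators and regulators, upstream kinases and known CRE targets. The lists were chosen with earlier results of these data known, so the counts describe these genes and are no test of the lists. The p-values of single genes do not allow for that choice. Genes were called at a Benjamini-Hochberg adjusted p below 0.05 in edgeR. Of the 50 tested in WT against ct, 12 were higher and 1 was lower, with a median log2 fold change of 0.08 against 0.00 over all genes. Of all genes tested, 2.36% were called there, 0.765% higher and 1.6% lower. In Y against WT, 0 were higher and 12 were lower, a median of -0.12, where 1.25% of all genes were called, 0.438% higher and 0.817% lower. In Y against ct, 0 were higher and 2 were lower, where 0.705% of all genes were called, 0.266% higher and 0.438% lower. Without the library Y 3, 6 instead of 12 were lower in Y than in WT, and without Y 2 or Y 3, 0 instead of 2 were lower in Y than in ct.

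Of the 6 Jun and Fos dimer partners tested, 4 were higher in WT than in ct and 3 were lower in Y than in WT. Jun, a partner of Atf2 and Atf7, had 42.8, 45.9 and 47.9 CPM in WT, 27.4, 26.4 and 26.6 in ct and 21.2, 22.5 and 18.7 in Y. Every WT library of Jun lay above every ct library, and every ct library above every Y library. Its log2 fold change was 0.76 (SE 0.09, edgeR adjusted p = 0.000228) for WT against ct and -1.13 (SE 0.09, edgeR adjusted p = 5.99e-06) for Y against WT. Junb rose by 0.54 (SE 0.09, edgeR adjusted p = 0.00254) on the log2 scale in WT against ct, and Fos by 0.46 (SE 0.09, edgeR adjusted p = 0.00703).

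Of the 12 CRE targets tested, 6 were higher in WT than in ct and 6 were lower in Y than in WT. Nr4a3, an orphan nuclear receptor induced by cAMP, had 12.2, 11.9 and 12.7 CPM in WT, 6.18, 5.99 and 4.27 in ct and 4.58, 5.34 and 5.03 in Y. WT stood apart from both other groups, which overlapped each other. Its log2 fold change was 1.17 (SE 0.15, edgeR adjusted p = 0.000381) for WT against ct. The clock gene Per1 rose by 0.71 (SE 0.09, edgeR adjusted p = 0.000434), the MAP kinase phosphatase gene Dusp1 by 0.50 (SE 0.09, edgeR adjusted p = 0.00329) and Egr1 by 0.66 (SE 0.12, edgeR adjusted p = 0.00703) in the same comparison. Dusp1 fell by 0.98 (SE 0.09, edgeR adjusted p = 1.21e-05) in Y against WT and by 0.47 (SE 0.09, edgeR adjusted p = 0.0145) in Y against ct. Per1 fell by 1.10 (edgeR adjusted p = 5.99e-06), Nr4a3 by 1.28 (edgeR adjusted p = 0.000207) and Nr4a1, another orphan receptor gene, by 0.53 (edgeR adjusted p = 0.00513) in Y against WT.

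**Figure D4:**
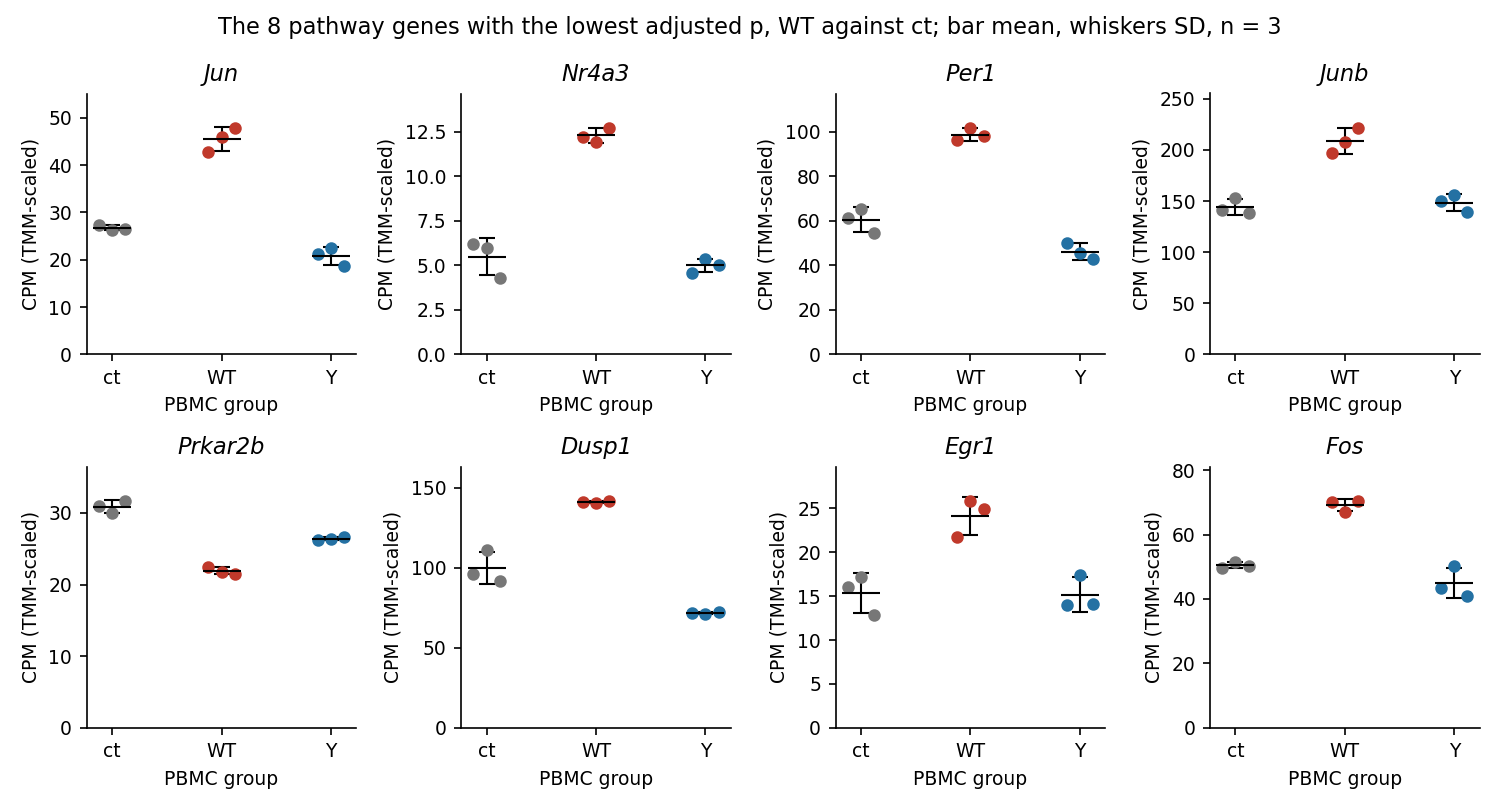
CPM after TMM normalization (y axis, from 0) in the PBMC groups (x axis) of the 8 genes of the pathway lists with the smallest adjusted p for WT against ct. Points are libraries, bars means and whiskers SD over 3 libraries. Prkar2b is lowest in WT, and the other 7 are highest there.

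Among the other CREB and ATF genes, 1 of 8 tested was higher in WT than in ct. This was Atf3, a stress-induced member, at 0.88 (SE 0.18, edgeR adjusted p = 0.0110). In Y against WT, 2 of 8 were lower, Atf3 at -0.91 (SE 0.18, edgeR adjusted p = 0.0194) and Atf4, of the amino acid and unfolded protein responses, at -0.38 (SE 0.09, edgeR adjusted p = 0.0424). Of 9 coactivators and regulators, 1 was called in each comparison. It was Sik1, a kinase that holds CRTC coactivators in the cytoplasm, with log2 fold changes of 0.39 (SE 0.08, edgeR adjusted p = 0.0110) for WT against ct, -0.47 (SE 0.08, edgeR adjusted p = 0.00886) for Y against ct and -0.86 (SE 0.08, edgeR adjusted p = 1.69e-05) for Y against WT. Of 15 upstream kinase genes, 1 was lower in WT than in ct and 0 were called in the other comparisons. This was Prkar2b, a regulatory subunit of protein kinase A, at -0.49 (SE 0.08, edgeR adjusted p = 0.00277), and all 6 platelet markers were lower in WT than in ct as well.

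The 5 genes most like Creb5 over the 9 PBMC libraries, by Pearson's r of log2 CPM, were Slc38a2 (r = 0.98), Neat1 (0.97), Tgif1 (0.96), Topors (0.95) and Srsf3 (0.94). These were picked as the highest of all genes tested and share libraries and groups with Creb5. Neat1, a nuclear noncoding RNA, had a mean of 184 CPM in ct, 298 in WT and 188 in Y. Among the relatives, r with Creb5 ran from -0.53 (Atf2) to 0.54 (Crem).

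On the cell surface, the mean TPM of all 7 genes was highest in monocytes. The monocyte libraries had 2.45, 2.54 and 1.58 TPM of Creb5 and those of NK cells 0.198, 0.302 and 0.210. The B cell libraries had 0.359, 0.141 and 0.0936 TPM, the HSPC libraries 0.0411, 0.115 and 0.172, and the T cell libraries 0.0652, 0.0586 and 0.0999. Monocytes lay above all others, and the ranges of NK cells, B cells, HSPCs and T cells, in falling order of their means, overlapped between neighbours. By mean TPM the order was monocytes (2.19 ± 0.53), NK cells (0.237 ± 0.057), B cells (0.198 ± 0.141), HSPCs (0.109 ± 0.066) and T cells (0.0745 ± 0.0222; SD, n = 3). Creb5 held between 0.562% and 2.65% of the summed TPM of the 7 genes in any surface library.

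The 3 monocyte libraries had 12.4, 13.6 and 16.2 TPM of Creb1, 31.9, 27.3 and 53.4 of Atf1, 13.7, 12.99 and 12.8 of Atf2, 27.1, 25.1 and 31.8 of Atf7, and 8.12, 11.3 and 7.75 of Creb3. The highest values of these 5 genes elsewhere were 2.21 (Creb1), 8.23 (Atf1), 1.504 (Atf2), 4.91 (Atf7) and 1.99 TPM (Creb3), so the monocyte libraries did not overlap the rest. Crem did overlap, at 1.85, 2.94 and 1.97 TPM in monocytes and 0.493, 1.85 and 1.41 in NK cells.

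By limma on log2(TPM + 1), each type was compared with the average of the 4 others. Creb5 exceeded 1 TPM in the monocyte libraries alone, and Crem elsewhere only in NK cell 2 and NK cell 3. Both passed the filter through the monocyte libraries and had to differ there, so on TPM they are described with no test, and calls are counted over the other 5 genes. In monocytes, 5 of these 5 were called, all higher, where 93.7% of the 13293 genes tested were called, 89.5% higher and 4.24% lower. The 5 are among the 7343 genes that pass whichever cell type is removed. Of those, 87.5% were higher and 4.75% lower in monocytes, and their shares in each cell type stand with the pathway genes below. The median log2 fold change in monocytes, taken over all 13293 genes only, was 2.20. These 5 lay above that median, from 2.41 (Creb3) to 3.18 (Atf7), while the log2 fold changes of Creb5, at 1.46 (SE 0.09), and Crem, at 1.06 (SE 0.16), lay below it. The pseudocount of 1 understates fold changes of genes as scarce as Creb5, so their place below the median is given for that pseudocount alone. With a pseudocount of 0.1 the median over all genes in monocytes was 3.31, and the values 1.46 and 1.06 cannot be set against it. In HSPCs, 0 of the 5 were higher and 5 lower, where 83.2% of all genes were called, 1.56% higher and 81.6% lower. In T cells, 0 were higher and 5 lower, where 88.6% were called, 4.92% higher and 83.6% lower. In B cells, 0 were higher and 2 lower, where 63.4% were called, 8.23% higher and 55.2% lower. In NK cells, 0 were higher and 2 lower, where 46.4% were called, 5.56% higher and 40.8% lower. These calls depended on the monocyte libraries in the average. Without them, limma called 1 of the 5 in HSPCs (Creb3, lower) and 1 in T cells (Atf1, lower), where 3729 and 5923 of all genes were called. Of the 5, 2 were then called in B cells (Creb3 and Atf7, both higher), where 4342 genes were, 67.4% of them higher. In NK cells 0 of the 5 were called, where 2735 genes were, with 0 of the 5 at an unadjusted p below 0.05.

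Since protein-coding transcripts differed so much between libraries, the values were also rescaled so that protein-coding TPM had the same sum in each library. Creb5 then had 12.5 ± 3.35 in monocytes, 10.8 ± 3.29 in NK cells, 7.71 ± 4.15 in B cells, 6.70 ± 3.52 in HSPCs and 7.42 ± 3.22 in T cells (rescaled TPM, SD, n = 3), and monocytes overlapped the rest. Its log2 fold change in monocytes was 0.63. The calls of the 5 relatives changed with this scale. In monocytes 1 of the 5 was called, Atf2, higher at 0.84 (limma adjusted p = 0.00439), where 38% of all genes were higher and 23% lower. Of the 7343 genes that pass whichever cell type is removed, 27.5% were higher and 32.6% lower there. In B cells Creb3, at 0.84 (limma adjusted p = 0.0248), and Atf7, at 0.62 (limma adjusted p = 0.00737), were higher and Atf2 was lower, at -0.58 (limma adjusted p = 0.0386), where 18% of all genes were higher and 34.8% lower. The call of Creb1 in B cells was lost, at -0.29 (limma adjusted p = 0.181). In T cells 1 of the 5 was called, Creb1, which was higher at 0.58 (limma adjusted p = 0.0137), where 21.9% of all genes were higher and 29.4% lower. In HSPCs Creb1, Creb3 and Atf7 were lower, where 19.9% of all genes were higher and 28.7% lower. In NK cells limma called 0 of the 5, with 1 at an unadjusted p below 0.05, where 15.7% of all genes were higher and 7.85% lower.

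Crem, described with no test, turned on this scale in monocytes, at a log2 fold change of -0.98, with 12.9 ± 3.89 in monocytes against 51.6 ± 20.8 in NK cells, 47.2 ± 1.25 in T cells and 23.5 ± 7.43 in B cells, and 8.06 ± 2.34 in HSPCs. Its log2 fold changes on rescaled TPM were 1.31 in T cells and 1.38 in NK cells. In HSPCs they were -1.74 on rescaled TPM and -0.85 (SE 0.16) on TPM.

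The pathway genes moved with the scale on the surface too. Of the 51 tested, 10 passed the filter only through the libraries of 1 cell type and are left out, a choice made after seeing the data. The other 41 are set against the 7343 of the 13293 genes that pass whichever cell type is removed. In monocytes 40 of the 41 were higher and 0 lower on TPM, against 18 and 10 on rescaled TPM. Of the 7343 genes, 87.5% were higher and 4.75% lower there on TPM, against 27.5% and 32.6% on rescaled TPM. Atf3 was the gene with the smallest adjusted p, at 6.00 (SE 0.12, limma adjusted p = 1.19e-14), with a mean of 93.3 TPM in monocytes against 0.663 in the other types. In NK cells 4 were higher and 8 lower on TPM, against 14 and 3 on rescaled TPM. Of the 7343 genes, 7.57% were higher and 26.1% lower there on TPM, against 19.7% and 5.05% on rescaled TPM. Those higher on TPM included the orphan receptor gene Nr4a2 at 1.89 (limma adjusted p = 2.32e-06) and Nr4a3 at 2.12 (limma adjusted p = 1.70e-05). In HSPCs 0 were higher and 37 lower on TPM, where 2.27% of the 7343 genes were higher and 77.9% lower, against 5 and 20 on rescaled TPM, where 22.9% and 30.3% were. In T cells 0 were higher and 35 lower on TPM, where 7.11% and 79.8% of these genes were, against 14 and 10 on rescaled TPM, where 28% and 27% were. In B cells 3 were higher and 21 lower on TPM, where 12.4% and 40.2% were, against 12 and 19 on rescaled TPM, where 26% and 28.1% were. Among the leading 8 genes by limma adjusted p on TPM, those of the 41 were Atf3, Mapkapk2, Prkar2b, Cited2 and Mapk14 in monocytes, where each was higher. They were Atf3, Camk2d, Sik1, Crtc2, Pde4b, Nr4a1 and Nr4a2 in HSPCs and Atf3, Mapkapk2, Prkar2b, Prkaca and Mapk14 in T cells, where each was lower. In B cells Camk2d was higher and Atf3, Prkar2b, Fosl2, Nr4a2 and Cited2 were lower. In NK cells Nr4a2 and Nr4a3 were higher and Mapkapk2 and Camk2d were lower. For every cell type but monocytes, the average compared against held the monocyte libraries, where Atf3 had its 93.3 TPM. These named calls are given on TPM alone, while fewer of the 41 were lower in those cell types on rescaled TPM.

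**Figure D5:**
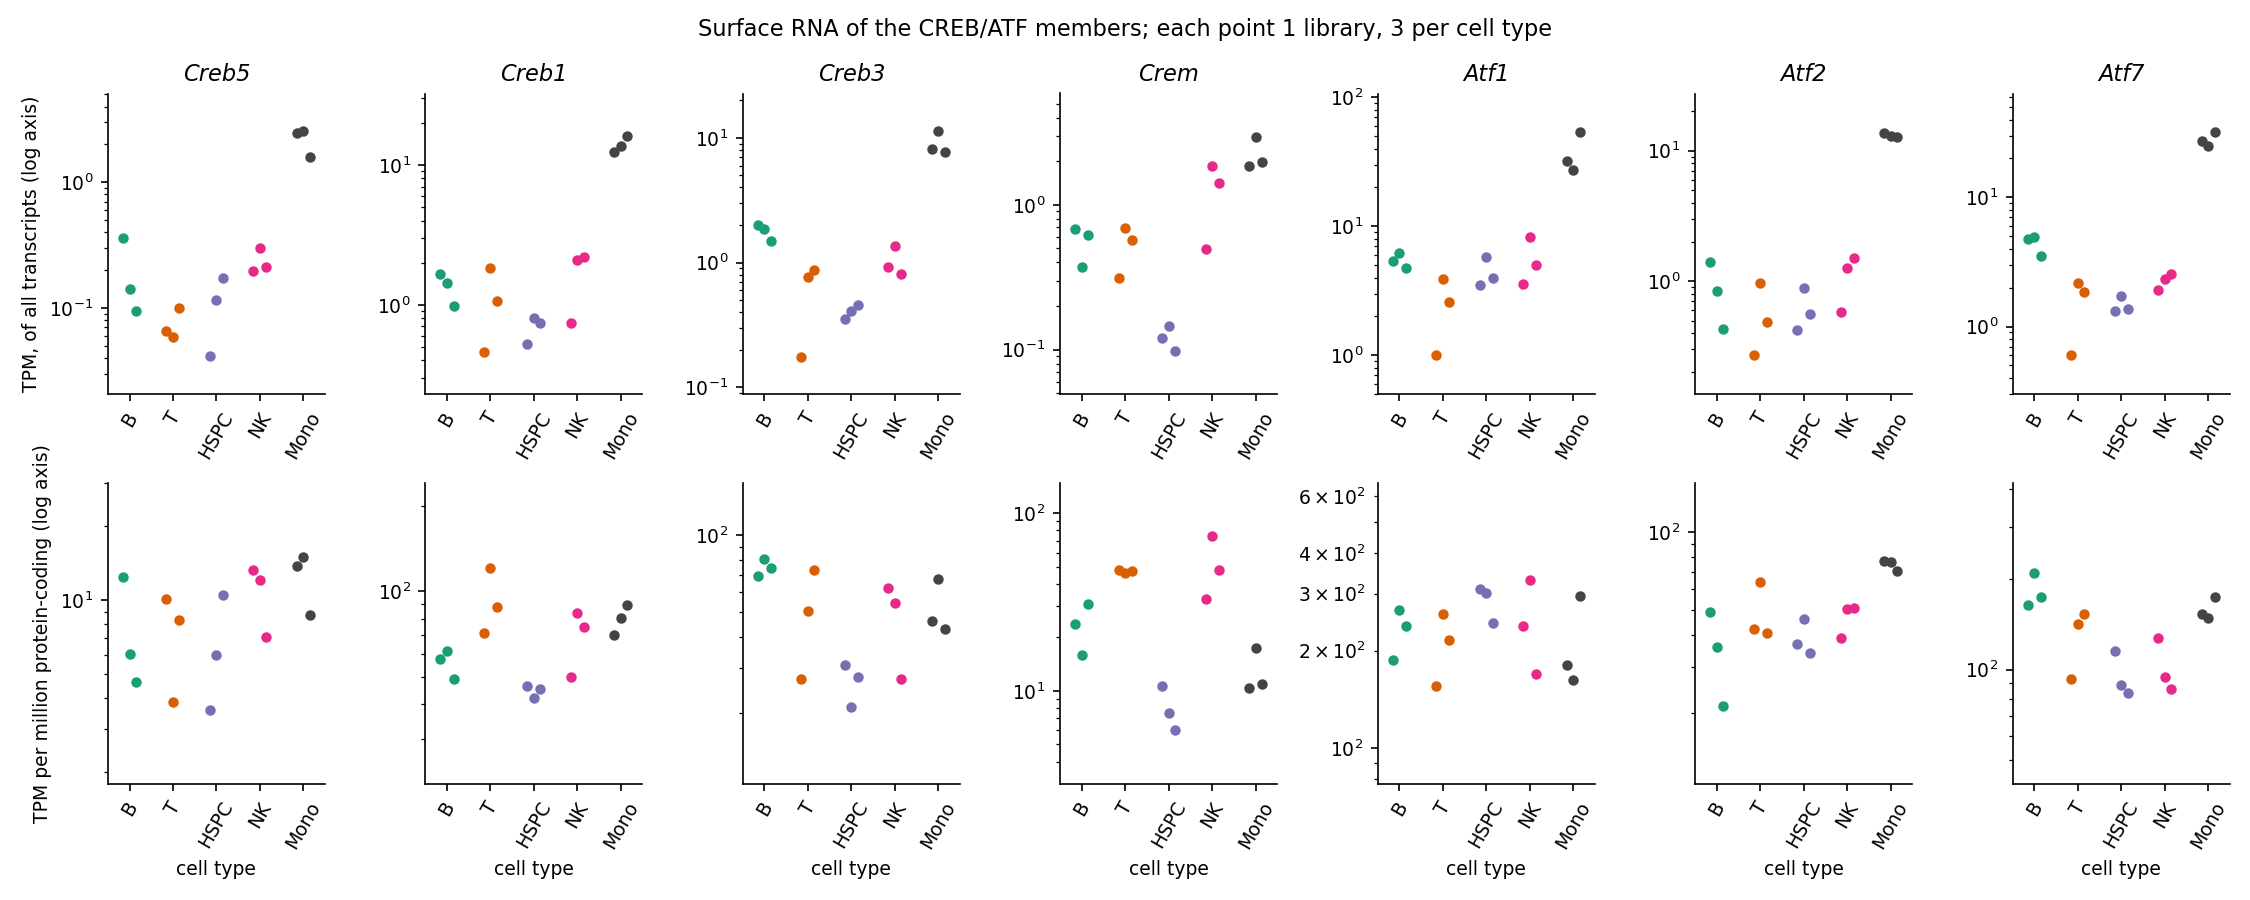
Surface level of the 7 genes by cell type (x axis), each point 1 of 3 libraries, on log axes. The top row gives TPM of all transcripts, where monocytes are highest on average for every gene, and the bottom row TPM rescaled to protein-coding TPM, where the monocyte libraries of Creb5, at 8.72 to 15.02, overlap those of other cell types.

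By share of Creb5 TPM, the leading isoform on the surface was Creb5-215 in every cell type but HSPCs. Outside monocytes Creb5 was below 1 TPM, the filter, in every library, so these shares may rest on few reads. Creb5-215 held between 90.1% and 95.4% of Creb5 TPM in monocytes, at 2.30, 2.29 and 1.51 TPM. Its share was between 77.7% and 92.5% in NK cells, between 78.6% and 100% in T cells, and between 87.1% and 100% in B cells. In HSPCs its share was between 17.0% and 27.0%, and Creb5-205, which has a coding sequence, held 60.5%, 65.5% and 74.7%. Creb5-205 begins in the second promoter window, as do Creb5-206 and Creb5-212. Creb5-205 levels there were 0.0249, 0.0756 and 0.129 TPM, and Creb5-205 is at 0 or not listed in the other 12 libraries. Gm25818 was at 0.747, 3.78 and 4.09 TPM in monocytes and at 1.45, 1.17 and 1.20 in B cells, while Creb5-215 was lower in B cells, at 0.354, 0.123 and 0.0936. Gm25818 was at 0.0709, 0 and 0.279 TPM in T cells, at 0.0895, 0.536 and 0 in HSPCs and at 0.319, 0 and 0.157 in NK cells. In these 3 cell types Gm25818 stood above Creb5-215 in some libraries and below it in others, as it did in monocytes.

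Keeping only transcripts annotated as protein-coding, and rescaling, was a choice made after Creb5-205 had been seen in HSPCs, so it is given as a description with no test. The log2 fold change of Creb5 in HSPCs against the average of the 4 other cell types was then 2.06, against -0.43 (SE 0.09) on the full TPM. Before rescaling, Creb5-205 was at most 0.129 TPM in HSPCs. In monocytes the same restriction gave -0.28. The part of the U1-like stretch in the surface values of Creb5-215 was not tested.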

How the data were processed

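The authors deposited expected counts per gene and TPM from RSEM for the 9 PBMC libraries, and transcript TPM for the 15 surface libraries. The submitters' processing notes name Trim Galore, STAR, featureCounts and RSEM for PBMCs and cutadapt, STAR, featureCounts and kallisto for the surface; the methods of the study give aligner versions for alignment to the human reference only, and none for these murine libraries. The mean isoform length that RSEM writes was also deposited and was read as it stands. The build of the surface tables is not stated beyond the name mm10.

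Expected counts were rounded and tested by quasi-likelihood in edgeR 4.0.16 (TMM, default filter) with all 9 libraries together. Surface TPM, set to 0 where a table does not list a transcript, were summed by gene name, kept if above 1 in at least 3 of 15 libraries and compared with limma 3.58.1 on log2(TPM + 1). Calls needed a Benjamini-Hochberg adjusted p below 0.05. DESeq2 1.42.0, other scalings and filters, a replicate block and the removal of each library were alternatives. The steps were tested on simulated data. Members and lists were chosen with earlier results of these data known. Named were all 7 members, up to 8 called list genes per comparison by adjusted p and the 5 genes most like Creb5. Sik1, Atf3 and Atf4 in PBMCs, where outside these 8, and the U1 genes were chosen after their values were seen. The main fits did not pair libraries by replicate number.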

Additional observations from a re-analysis of the deposited data

How the results depend on the processing

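The counts of genes called, which set the background of the comparisons, moved with the processing. With DESeq2, 170 in place of 275 genes were called in WT against ct and 97 in place of 146 in Y against WT. Without the low-count filter the counts were 484 (WT against ct), 257 in place of 82 (Y against ct) and 366 (Y against WT). Leaving out 1 library gave 168 to 253, 34 to 167 and 52 to 170 genes in the same order, lowest without WT 2, Y 3 and Y 3. The PBMC log2 fold changes of Creb5 ranged from 1.53 to 1.85, from -0.32 to 0.20 and from -2.01 to -1.48 when 1 library was left out.

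On the surface, rescaling to protein-coding TPM gave 8111 in place of 12455 genes in monocytes, 3129 in place of 6167 in NK cells, 6462 in place of 11060 in HSPCs and 6820 in place of 11772 in T cells. Quantile normalization gave 8213, 3666, 6568 and 6701. Without the monocyte libraries the counts were 2735 in NK cells, 3729 in HSPCs, 5923 in T cells and 4342 in place of 8431 in B cells. With protein-coding transcripts only, chosen after seeing the data, they were 6028 in monocytes, 2078 in NK cells, 4917 in HSPCs, 5523 in T cells and 5210 in B cells. A pseudocount of 0.1 gave 2677 in NK cells, and no low-value filter 20482 in monocytes. Leaving out 1 library gave 8296 to 12451 (monocytes), 2558 to 6902 (NK cells), 7257 to 11400 (HSPCs), 7876 to 11882 (T cells) and 4734 to 9099 (B cells), each lowest without 1 of the monocyte libraries.

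The log2 fold change of Creb5 in monocytes moved to 0.63 on rescaled TPM and turned under quantile normalization (-0.044) and with protein-coding transcripts (-0.28). In HSPCs the 3 settings gave -0.47, -0.056 and 2.06, and -0.073 without monocytes. In T cells they gave -0.29, -0.0012 and -0.80, and -0.13 without monocytes. In B cells Creb5 was at -0.54 with a pseudocount of 0.1, -0.25 on rescaled TPM, 0.11 under quantile normalization and 0.068 without monocytes. Protein-coding transcripts alone gave -0.92 there. In NK cells it turned on rescaled TPM (0.38) and without monocytes (0.14). Leaving out 1 library gave 1.44 to 1.48 (monocytes), -0.47 to -0.39 (HSPCs), -0.51 to -0.46 (T cells), -0.39 to -0.24 (B cells) and -0.27 to -0.21 (NK cells). The values in B cells were -0.27 without B cell 2 and -0.24 without B cell 3, and in NK cells -0.25 without B cell 3. With 1 monocyte library left out Creb5 failed the filter in the remaining libraries and had no value, while its values without all monocyte libraries were taken on the genes that had passed with them.

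The log2 fold changes of the relatives turned as follows on rescaled TPM: Crem in monocytes (-0.98), T cells (1.31) and B cells (0.035), Atf1 in monocytes (-0.21), HSPCs (0.37) and NK cells (0.056), Creb1 in T cells (0.58) and NK cells (0.057), and in T cells Creb3 (0.016) and Atf2 (0.053). Under quantile normalization these were Crem in monocytes (-0.57), T cells (0.56) and B cells (0.064), Atf1 in monocytes (-0.10) and HSPCs (0.58), Creb3 in monocytes (-0.019) and T cells (0.044), and in T cells Creb1 (0.36) and Atf2 (0.037). Without monocytes they were, in B cells, Creb1 (0.18), Crem (0.0064), Atf1 (0.42) and Atf2 (0.095), Atf1 in HSPCs (0.068) and, in NK cells, Creb1 (0.37), Creb3 (0.14), Atf1 (0.39), Atf2 (0.32) and Atf7 (0.039). With protein-coding transcripts they were Crem in monocytes (-1.62) and T cells (1.63), Atf1 in monocytes (-0.18), HSPCs (0.40) and B cells (0.036), Creb1 in T cells (0.18) and NK cells (0.044), and Atf2 in NK cells (0.19). Under quantile normalization limma called Atf1 higher in HSPCs and Creb1 higher in T cells. The calls among Creb1, Creb3, Atf1, Atf2 and Atf7 fell from 5 to 2 in monocytes (Atf2 and Atf7). They fell from 5 lower to 3 in HSPCs, from 5 lower to 0 in T cells and from 2 to 1 in NK cells (Atf7). In B cells they fell from 2 lower to 0, where 6463 of all genes were called, 46% of them higher. For the other cell types only the totals over all genes, given above, stand beside these counts. Creb3 and Atf7 in B cells were called higher under quantile normalization (0.53 and 0.45) and without monocytes (0.76 and 0.99) as well as on rescaled TPM. With protein-coding transcripts only, neither was called (0.39, limma adjusted p = 0.216, and 0.56, limma adjusted p = 0.0549). In B cells the retained intron Creb3-204 held 41.6% to 46.0% of Creb3 TPM. The 390-base Atf7-201, of 1 exon, held 43.0% to 44.5% of Atf7 TPM there. Creb1 in B cells was no longer called with a pseudocount of 0.1 (-0.55) or without the low-value filter (-0.54), nor without B cell 2, B cell 3, HSPC 2, HSPC 3, NK cell 2 or Monocyte 3 (-0.57 to -0.42). Atf2 in B cells was no longer called without B cell 3 (-0.48) or under quantile normalization. Atf1 in HSPCs was no longer called without B cell 1 or 2, T cell 2 or 3, HSPC 1 or 3, NK cell 2 or 3, or Monocyte 3 (-0.66 to -0.53), and Creb3 in NK cells without NK cell 1 (-0.44) or NK cell 3 (-0.39). Over all alternatives, Atf1 in HSPCs was weaker under 11, Creb3 in NK cells under 6 and Atf2 in B cells under 4. The cause was not tested.

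The labels state no pairing by replicate number, and the main fits used none. Of same-numbered pairs, 0 of 9 in PBMCs and 6 of 30 on the surface correlated above 0.1. Of differently numbered pairs, 0 of 18 and 8 of 60 did. Same-numbered surface pairs ran from -0.27 to 0.48. Those of T cells and NK cells were at 0.48, 0.21 and 0.32, against -0.38 to 0.16 for differently numbered ones. These values cannot settle whether some surface libraries were paired. With the number as a replicate block, Creb5 was at 1.67 (WT against ct), 0.02 (Y against ct) and -1.66 (Y against WT), and 234, 74 and 128 genes were called. Counts of Crem, from 7 to 31.3 per PBMC library, limit what can be seen of it, and the depth of the surface libraries is unknown.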
